A study of Mus musculus with 10 samples.

Results

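Retinal ganglion cells (RGCs) with a high level of Fos messenger RNA were compared with RGCs of the same uninjured retinas in which no Fos molecule was counted. The cells were chosen by their Fos count alone. A cell was called Fos-high with at least 3 Fos UMIs per 10000 UMIs of the cell, and Fos-negative with 0 Fos UMIs, where each UMI stands for 1 RNA molecule captured from the cell. This gave 108 Fos-high and 951 Fos-negative cells of 1683 uninjured cells, with 624 cells in between, out of 3292 cells in the series. The study profiled single RGCs from wild-type 129S1/SvImJ mice of both sexes at 12 weeks of age, with 6 libraries of uninjured retinas and 4 of retinas taken 2 weeks after optic nerve crush (ONC), an injury of the axons of these cells. Each batch pooled 10 retinas, so the animals of a batch cannot be told apart, and RGCs were captured on plates coated with an antibody against the surface protein Thy1 after macrophages had been depleted. The comparison asks which other genes differ with Fos, as a description of a response to activity or to dissociation in uninjured cells. No library was made without dissociation, so activity in the retina and a response to the preparation cannot be told apart.

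Fos belongs to the immediate early genes, which neurons transcribe within minutes of electrical activity, growth factor signalling or stress, without a need for new protein. The Fos protein pairs with a Jun protein to form AP-1, a transcription factor that acts on later genes. Fos is widely used to mark active neurons, and enzymatic dissociation of tissue is also known to raise it.

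Uninjured 1 to 6 held 98, 103, 363, 651, 267 and 201 cells, with total counts of 2839693, 3423989, 12673923, 23180399, 5686605 and 4674981 UMIs. The median cell of uninjured 1 to 6 held 27732, 30368, 31996, 34337, 20437 and 21977 UMIs, so uninjured 5 and 6 were the shallower libraries. Fos was also higher there: it reached 183 and 129 CPM (UMIs of a gene per 1000000 UMIs summed over the same cells) in uninjured 5 and 6, against 70.8, 49.6, 34.0 and 48.7 CPM in uninjured 1 to 4. Fos-high cells numbered 7, 5, 3, 13, 49 and 31 in uninjured 1 to 6, and Fos-negative cells 67, 76, 234, 379, 114 and 81. The Fos-high share of all cells was lowest in uninjured 3, at 0.826% (95% Clopper-Pearson interval 0.171 to 2.40%), and highest in uninjured 5, at 18.4% (13.9 to 23.5%). With cells of at least 10000 UMIs thinned at random to 10000 and the groups formed again, Fos-high cells made up 9.57, 4.90, 1.97, 4.27, 22.9 and 17.1% of uninjured 1 to 6. The shares of the thinned cells also differed between libraries, and these differences were not tested. Uninjured 2 and 4 shared 1 cell barcode, and no other pair of uninjured libraries shared any.

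Fos itself is given as a description, because it chose the cells. Summed over Fos-high cells it stood at 552, 700.3, 630.3, 602, 722 and 582 CPM in uninjured 1 to 6, and in the cells in between at 81.2, 54.7, 60.7, 73.7, 119.9 and 91.6 CPM. The Fos-high cells had a median of 5.46 Fos UMIs per 10000 and 12 Fos UMIs, with a maximum of 19.6 per 10000 and as few as 2 Fos UMIs. Of the 108 cells 36 lay just above the threshold, at 3 to under 4 per 10000, while 58 had at least 5 and 16 at least 10. The lowest value inside the group was 3.01 and the fifth lowest 3.10, while the highest value outside was just under 3.00 and the fifth highest 2.95, with 55 cells from 2 to under 3. The few Fos-high cells carried 65.2, 71.2, 19.3, 27.4, 69.4 and 64.6% of all Fos UMIs of uninjured 1 to 6. In uninjured 3 and 4 most Fos UMIs thus lay in cells below the threshold, as the plot of Fos per cell shows.

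**Figure D1:**
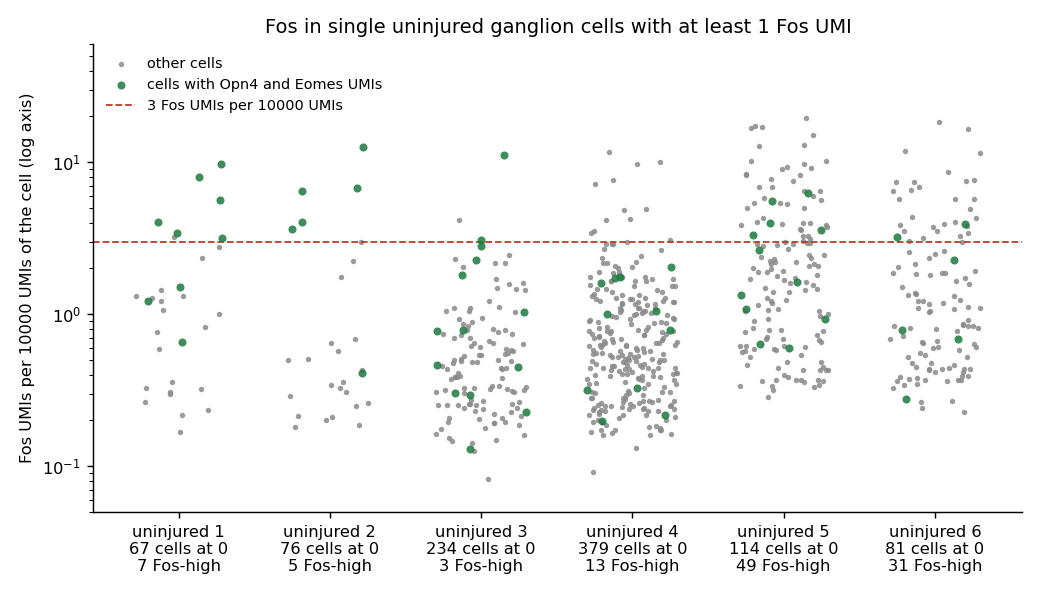
Fos UMIs per 10000 UMIs (log axis) in every uninjured cell with at least 1 Fos UMI, by library, with the threshold of 3 as a dashed line and cells with UMIs of Opn4 and Eomes in green. Uninjured 5 and 6 hold 49 and 31 points at or above the line, against 3 to 13 in uninjured 1 to 4.

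Both groups carried the markers of RGCs. Every Fos-high and every Fos-negative cell had UMIs of at least 3 of 8 pan-RGC markers (Rbpms, Slc17a6, Sncg, Tubb3, Nefl, Nefm, Nefh and Thy1), which include an RNA-binding protein, the vesicular glutamate transporter and neurofilaments. The paper's methods establish RGC identity by joint expression of Rbpms, Slc17a6, Sncg and Tubb3, after capture by Thy1. The selection of the cells thus largely fixed this result in advance, and it is no test of identity. Their summed level was 4977, 5128, 6797, 6078, 7302 and 7667 CPM in the Fos-high cells of uninjured 1 to 6 and 7120.0, 7390.1, 6431, 6475, 7632 and 8178 CPM in the Fos-negative cells. The sums were lower in the Fos-high cells in 5 of 6 libraries. In the edgeR test described next, 0 of the 8 passed (beside 2.31% of all genes), 1 had an unadjusted p under 0.05, and their median log2 difference was -0.09. DESeq2 also called 0 of the 8, and limma-voom called 1, Rbpms, with a log2 difference of -0.33. Rbpms, Slc17a6, Nefl, Nefm and Thy1 were lower in the Fos-high cells in 6 of 6 libraries.

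Fos-high cells held more UMIs than Fos-negative cells in most libraries. The median total was 30082, 34816, 48731, 38451, 20127 and 19985 UMIs in the Fos-high cells of uninjured 1 to 6, against 24956, 28593.5, 27241, 29827, 16823 and 20400 UMIs in the Fos-negative cells. The median was higher in 5 of 6 libraries, with a mean difference of 7392 UMIs (SD 7542, n = 6 libraries). The total UMIs of a cell enter the rule that formed the groups, and a count of 0 Fos UMIs is more frequent in shallow cells, so its exact p of 0.0625, 1 of the 5 that were adjusted together, is not used. Messenger RNAs of ribosomal proteins took a larger share of the UMIs of Fos-high cells in every library. That share was 5.45, 7.34, 8.28, 4.05, 4.70 and 4.74% in Fos-high cells and 3.24, 3.21, 2.53, 2.20, 2.91 and 4.42% in Fos-negative cells of uninjured 1 to 6. Its mean difference was 2.68 percentage points (SD 1.94, n = 6; exact two-sided sign-flip permutation test, p = 0.03125, the smallest that 6 libraries can give), and with an adjustment over 5 measures it did not pass (p = 0.0781). The mitochondrial share was higher in 1 of 6 libraries, with a mean difference of -0.55 points (exact p = 0.0625), and the share of Malat1, a nuclear noncoding RNA, was higher in 2 of 6, with a mean difference of -0.98 points (exact p = 0.125). With Fos-negative cells matched in total UMIs, the mitochondrial difference changed sign, to 0.16 points, higher in 3 of 6 (exact p = 0.5625). That of Malat1 was then -0.62 points, higher in 3 of 6 (exact p = 0.281). None of these shares passed the adjusted test, so the values describe the 6 libraries. The plot of per-cell measures shows total UMIs and the ribosomal share side by side.

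**Figure D2:**
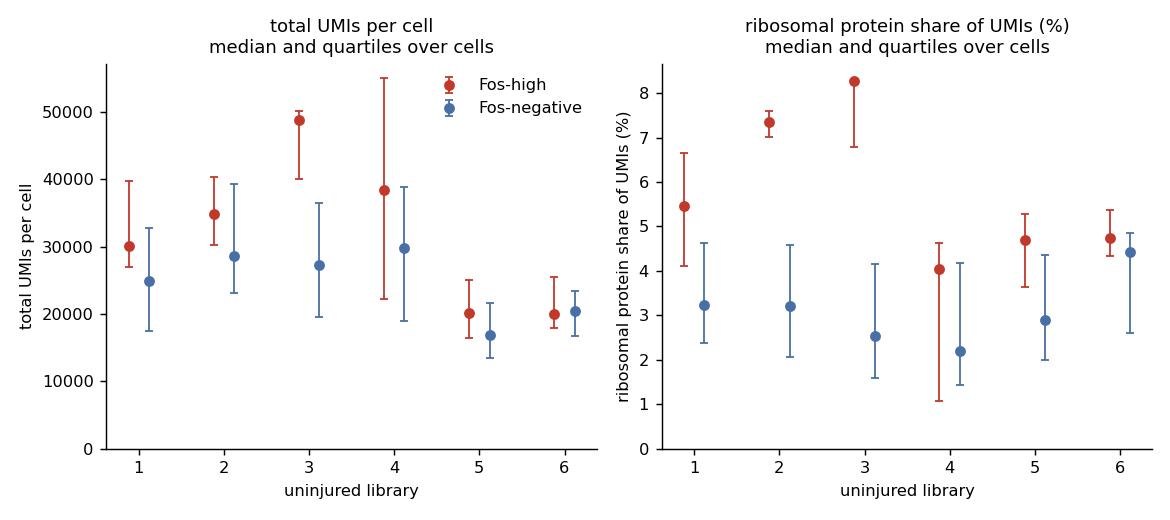
Median and quartiles over cells of total UMIs per cell and of the ribosomal protein share of UMIs (percent), for Fos-high and Fos-negative cells of each uninjured library. The ribosomal share of Fos-high cells lies above that of Fos-negative cells in 6 of 6 libraries, and total UMIs in 5 of 6.

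UMIs were summed within each library over the Fos-high and over the Fos-negative cells, and the pairs of sums were compared with the library as a block (edgeR quasi-likelihood test, Benjamini-Hochberg adjustment over all genes tested). A library entered with at least 10 cells in both groups, which left uninjured 4, 5 and 6, with 513321, 1002494 and 669637 UMIs in the Fos-high sums and 11533650, 2022525 and 1670065 UMIs in the Fos-negative sums. Of 10354 genes tested, 239 passed (2.31%): 162 rose in Fos-high cells (1.56%) and 77 fell (0.744%), and 1496 had an unadjusted p under 0.05. The largest log2 difference of all genes tested, 5.52, was that of the immediate early gene Fosb. Of the 239, which were called from uninjured 4 to 6, 134 had 1 direction in all 6 libraries, with 3 to 7 Fos-high cells in each of uninjured 1 to 3. A fit of all 6 libraries with no minimum of cells gave 56 genes of 10324 (0.542%), of which 54 were among the 239. The count fell to 114 genes without uninjured 5 and 63 without uninjured 6, and was 266 without uninjured 4. In the plot of all genes several immediate early genes lie toward the upper edge, among other genes such as Hspa1b (log2 difference 3.70) and Hspa1a (3.57).

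**Figure D3:**
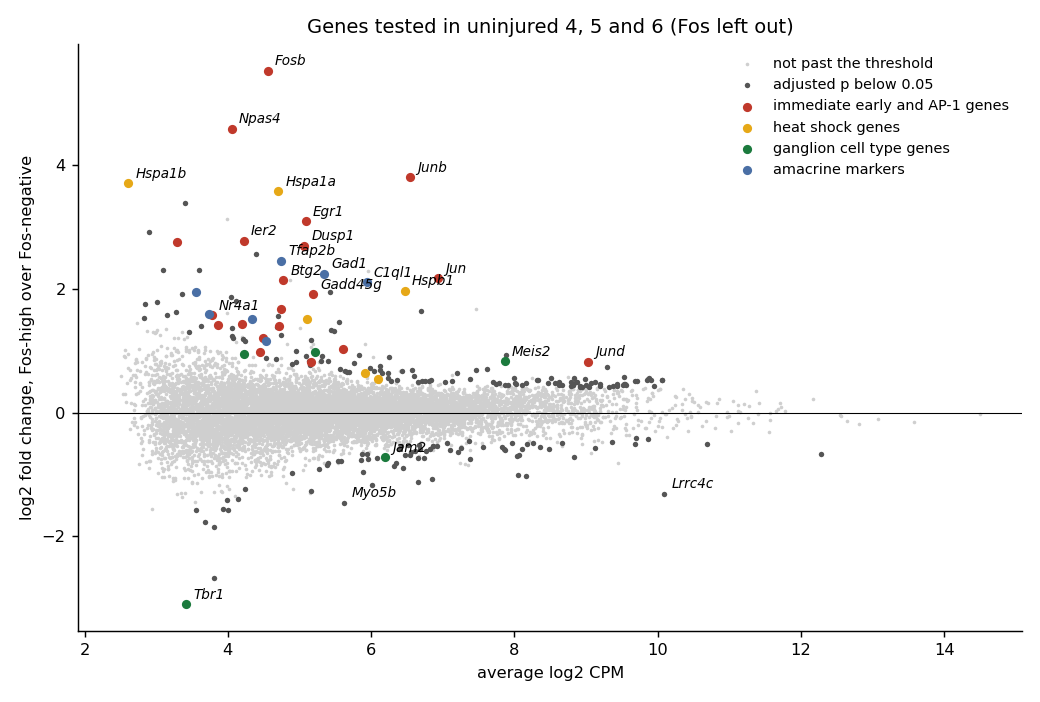
Log2 difference between Fos-high and Fos-negative cells against average log2 CPM for the 10354 genes tested in uninjured 4 to 6, with genes past the adjusted threshold coloured and named genes written out. Fosb (5.52), Npas4 (4.58) and Junb (3.80) have the largest log2 differences among the immediate early genes named.

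The AP-1 genes rose with Fos. Of 13 genes that encode Fos and Jun relatives and other possible partners, 7 were tested, 4 rose (Fosb, Junb, Jun and Jund; 57.1%, beside 1.56% of all genes) and 0 fell, with a median log2 difference of 0.82, against 0.01 over all genes tested. Here and in what follows, n counts the libraries in the edgeR fit and a log2 difference is that of Fos-high minus Fos-negative cells. Fosb, the closest relative of Fos, stood at 59.0, 11.6, 15.2, 113, 87.8 and 74.7 CPM in the Fos-high cells of uninjured 1 to 6 and at 0.574, 2.12, 2.65, 2.25, 2.47 and 1.80 CPM in Fos-negative cells. Each library was higher in its Fos-high cells and the groups did not overlap (log2 difference 5.52, SE 0.27, n = 3, adjusted p = 2.12e-20). Junb, a Jun relative, was higher in 6 of 6 libraries as well, at 459.7, 1042, 220.2, 203, 250.4 and 239 CPM against 12.1, 8.07, 10.9, 11.2, 16.3 and 28.7 CPM (log2 difference 3.80, SE 0.18, n = 3, adjusted p = 5.20e-12). Jund, which neurons express at a high basal level, rose least, from 217, 256, 269, 235, 441 and 489 CPM to 371, 567, 425, 429, 811 and 766 CPM (log2 difference 0.82, SE 0.12, n = 3, adjusted p = 4.40e-06). Jun behaved differently between the libraries. Its level was 38.0, 0, 7.59, 212, 236 and 261 CPM in Fos-high and 55.1, 64.5, 52.8, 52.1, 41.0 and 70.1 CPM in Fos-negative cells, so it rose in uninjured 4 to 6 (log2 difference 2.16, SE 0.13, n = 3, adjusted p = 2.39e-16) and was lower in the 7, 5 and 3 Fos-high cells of uninjured 1 to 3. With all 6 libraries Jun gave a log2 difference of 1.10 and adjusted p = 0.55, and Fosb one of 4.91 and adjusted p = 0.000111. Atf3, an AP-1 partner induced by injury, had too few UMIs for the test, with 0, 0, 0, 50.7, 0 and 1.49 CPM in Fos-high cells: 26 UMIs in uninjured 4, 0 in uninjured 5 and 1 in uninjured 6.

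Cells in between, with some Fos but less than 3 UMIs per 10000, had levels between the other groups for several of these genes, in sums that entered no test. Their Fosb level was 0, 3.35, 7.67, 9.61, 10.1 and 7.71 CPM and their Junb level 42.9, 14.5, 20.6, 22.7, 60.1 and 48.0 CPM in uninjured 1 to 6. Egr1 stood at 40.6, 20.1, 15.2, 22.0, 27.8 and 46.2 CPM in them. In each library the Junb and Egr1 levels of these cells lay between those of Fos-negative and Fos-high cells. For Jun, at 29.0, 45.8, 47.6, 57.3, 71.8 and 44.1 CPM, the cells in between lay between the other groups in uninjured 2 to 5 and below both in uninjured 1 and 6. The plot of 12 genes by library shows all 3 groups.

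**Figure D4:**
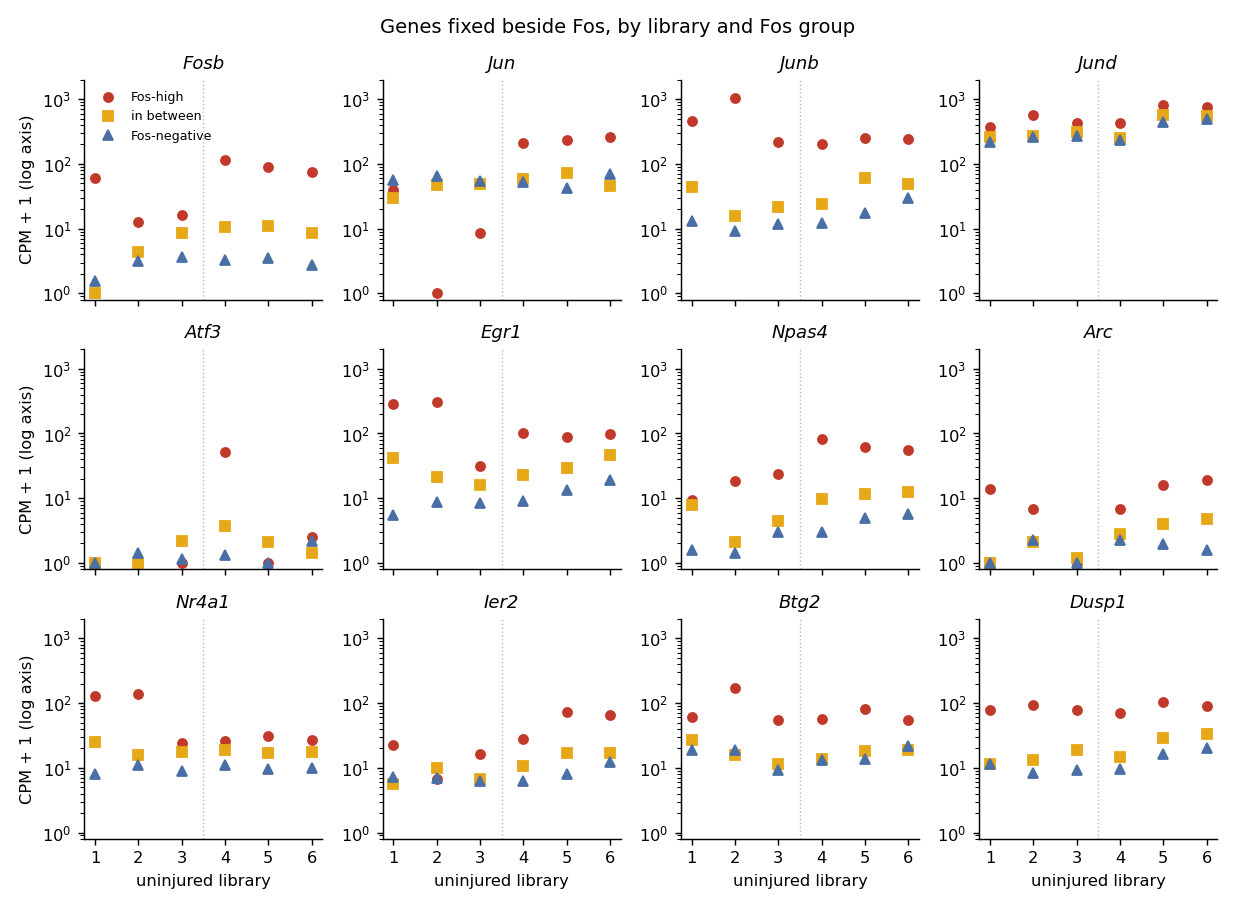
CPM + 1 (log axis) of 12 immediate early genes in Fos-high cells, cells in between and Fos-negative cells of each uninjured library. Fosb, Junb, Jund, Egr1, Npas4, Nr4a1, Btg2 and Dusp1 are higher in Fos-high than in Fos-negative cells in 6 of 6 libraries, Ier2 in 5 of 6 and Jun in 3 of 6.

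Other immediate early transcription factors rose with the AP-1 genes. Of 30 in the list 17 were tested, 9 rose (Npas4, Egr1, Ier2, Btg2, Nr4a1, Ier5l, Ier5, Klf6 and Cebpb; 52.9%, beside 1.56% of all genes) and 0 fell, and the median log2 difference was 1.03. Npas4, which neurons induce through calcium entry and which shapes inhibitory synapses, was 8.43, 17.4, 22.8, 81.8, 61.8 and 53.8 CPM in the Fos-high cells of uninjured 1 to 6 and 0.574, 0.425, 2.06, 1.99, 3.96 and 4.79 CPM in Fos-negative cells (log2 difference 4.58, SE 0.31, n = 3, adjusted p = 3.76e-13). It was higher in 6 of 6 libraries, with the highest levels in uninjured 4 to 6. Egr1, a zinc finger factor, was 283, 301, 30.4, 101, 88.8 and 98.6 CPM against 4.6, 7.64, 7.35, 8.06, 12.4 and 18.0 CPM (log2 difference 3.09, SE 0.22, n = 3, adjusted p = 3.76e-13), with its highest levels in uninjured 1 and 2. Over all 6 libraries Egr1 just missed the threshold, at a log2 difference of 3.72 and adjusted p = 0.0543. Ier2, a nuclear immediate early protein, was 21.1, 5.79, 15.2, 27.3, 70.8 and 64.2 CPM against 6.32, 5.94, 5.29, 5.20, 6.92 and 11.4 CPM, and in uninjured 2 the groups were alike (log2 difference 2.77, SE 0.26, n = 3, adjusted p = 1.57e-10). Btg2, an antiproliferative regulator of transcription, was 59.0, 168, 53.2, 56.5, 79.8 and 53.8 CPM against 17.8, 17.8, 8.23, 12.2, 12.9 and 20.4 CPM (log2 difference 2.14, SE 0.23, n = 3, adjusted p = 7.36e-09).

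Nr4a1, an orphan nuclear receptor, was 127, 139, 22.8, 25.3, 29.9 and 25.4 CPM in Fos-high and 6.89, 10.2, 7.79, 10.2, 8.41 and 8.98 CPM in Fos-negative cells (log2 difference 1.57, SE 0.30, n = 3, adjusted p = 0.000695). Uninjured 1 and 2 thus held its highest levels and they were not in the test. Its log2 difference was 1.37 without uninjured 5 (adjusted p = 0.0697), 1.57 without uninjured 6 (0.0862) and 2.43 with all 6 libraries (0.0491). The smaller rises in the list lost the call in at least 1 fit of 2 libraries. The differences of Ier5l and Ier5 stayed of a like size, while those of Klf6 and Cebpb varied more. Ier5l had a log2 difference of 1.39, with 1.22 (0.0516) without uninjured 5 and 1.31 (0.0745) without uninjured 6, adjusted p in brackets, and Ier5 one of 1.20, with 1.08 (0.113) and 1.33 (0.0612). Klf6 went from 1.03 to 0.85 (0.326) without uninjured 5. It kept the call without uninjured 4, at 0.74 (0.0127), and without uninjured 6, at 1.37 (0.00819). Cebpb, at 0.98 (adjusted p = 0.0354), passed in no fit that left out a library. It was at 0.58 (0.282), 1.19 (0.101) and 1.22 (0.206) without uninjured 4, 5 and 6. Over the list, 11 genes rose without uninjured 4, 4 without uninjured 5, 5 without uninjured 6 and 5 with all 6 libraries. Over all genes 164 of 10292, 72 of 10275, 53 of 10832 and 52 of 10324 rose in these fits.

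Effectors and feedback regulators of the same early response followed. Of 43 genes 25 were tested, 7 rose (Gadd45b, Dusp1, Gadd45g, Errfi1, Plk2, Tiparp and Sik2; 28.0%, beside 1.56% of all genes) and 0 fell, with a median log2 difference of 0.46. Dusp1, a phosphatase that switches off MAP kinases, was 75.9, 92.6, 75.9, 70.1, 102 and 88.1 CPM in the Fos-high cells of uninjured 1 to 6 and 10.3, 7.22, 8.23, 8.67, 15.3 and 19.2 CPM in Fos-negative cells (log2 difference 2.69, SE 0.21, n = 3, adjusted p = 2.26e-13). Its levels in Fos-high cells varied little between libraries, and the groups did not overlap. Gadd45b, a stress and activity sensor, was 63.3, 150.5, 83.5, 39.0, 21.9 and 32.9 CPM against 5.74, 4.67, 4.26, 4.16, 3.46 and 7.78 CPM, with the highest values in uninjured 1 to 3 (log2 difference 2.76, SE 0.34, n = 3, adjusted p = 1.53e-07). Its relative Gadd45g was 29.5, 23.1, 68.3, 42.9, 95.8 and 97.1 CPM against 19.0, 20.8, 16.6, 13.9, 22.7 and 25.7 CPM (log2 difference 1.92, SE 0.19, n = 3, adjusted p = 6.50e-10). Errfi1, an inhibitor of the EGF receptor, was 46.4, 40.5, 68.3, 39.0, 62.8 and 59.7 CPM against 18.4, 20.8, 16.2, 16.8, 19.3 and 13.8 CPM (log2 difference 1.68, SE 0.22, n = 3, adjusted p = 1.06e-06). These 4 genes were higher in Fos-high cells in 6 of 6 libraries. The other 3 had log2 differences of 1.42 (Plk2, a polo-like kinase), 1.42 (Tiparp, an ADP-ribosyltransferase) and 0.82 (Sik2, a salt-inducible kinase), and lost the call in a fit of 2 libraries. Without uninjured 5 the log2 difference, with the adjusted p in brackets, was 1.05 (0.142) for Plk2 and 0.63 (0.493) for Sik2, and without uninjured 6 it was 1.69 (0.0724) for Plk2, 1.47 (0.0862) for Tiparp and 0.66 (0.321) for Sik2. With all 6 libraries Tiparp passed, at 1.40 (0.0491). Arc, a synaptic protein translated at active synapses, had too few UMIs for the test, at 12.7, 5.79, 0, 5.84, 15 and 17.9 CPM in Fos-high and 0, 1.27, 0, 1.3, 0.989 and 0.599 CPM in Fos-negative cells.

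The early genes differed in the share of Fos-high cells in which they were counted. To set cells side by side at 1 depth, each cell with at least 10000 UMIs was thinned to 10000 UMIs, which kept 102 Fos-high and 907 Fos-negative cells, and the share of cells with at least 1 UMI was taken, with Fos-negative cells as the background. The shares pool the 6 libraries, which are unevenly represented: 45 and 30 of these Fos-high cells came from uninjured 5 and 6, and 228 and 362 of the Fos-negative cells from uninjured 3 and 4. Junb was counted in 75.5% of Fos-high and 11.8% of Fos-negative cells. Jun was found in 66.7% of Fos-high and 32.0% of Fos-negative cells, and Egr1 in 53.9% of Fos-high and 7.61% of Fos-negative cells. The AP-1 gene Jund was near saturation, with UMIs in 100% of Fos-high and 88.1% of Fos-negative cells. Fosb had UMIs in 44.1% of Fos-high and 2.43% of Fos-negative cells, Npas4 in 46.1% of Fos-high and 2.09% of Fos-negative cells, and Btg2 in 48.0% of Fos-high and 13.0% of Fos-negative cells. Dusp1 followed with 44.1% of Fos-high and 9.81% of Fos-negative cells, and Ier2 with 33.3% of Fos-high and 6.50% of Fos-negative cells. Nr4a1 was rarer, with 24.5% of Fos-high and 7.72% of Fos-negative cells, as was Arc, with 15.7% of Fos-high and 1.21% of Fos-negative cells. Atf3 stayed at 1.96% of Fos-high and 0.221% of Fos-negative cells. By library, the share was higher in Fos-high cells in 6 of 6 for Junb, Egr1, Btg2 and Dusp1. For Fosb and Jun it was 0 in the 5 and 3 Fos-high cells of uninjured 2 and 3, against 2.67 and 3.07% of their Fos-negative cells for Fosb and 36.0 and 31.1% for Jun. The share was also 0 for Ier2 in uninjured 2 and for Nr4a1 in uninjured 3, against 8.0 and 7.46% of Fos-negative cells. For Arc it was 0 in the 12 Fos-high cells of uninjured 4, against 2.21%. At this depth a Fos-high cell thus held UMIs of some of these genes and not of others, and cells without a UMI may hold RNA that was not captured.

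The promoters of the early genes are shown because these genes rose together, and the letters of motifs known from this gene family can be looked for in them. RefSeq promoters (build GRCm38.p6, not the mm39 build of the counts; 250 bases before to 50 after the start) were found for 18 of the 20 members of the 3 lists that rose, and Egr1 and Ier2 were not in the table. Motifs were looked for in the 250 bases before the start alone, not after it or further upstream. Searched on both strands were the cyclic AMP response element (CRE, TGACGTCA), its core TGACG, which lies inside the CRE on both strands, the AP-1 site TGANTCA, and the CArG box of serum response factor. A full CRE was present in 3 of the 18 promoters (16.7%; Btg2, Dusp1 and Plk2), against 1.55% of 32851 promoters. The core was present in 8 (44.4%), against 17.8%, and the AP-1 site and the CArG box in 0, against 6.75% and 1.47%. The Fos promoter held the core at positions -129 and -66 from its start, Fosb at -60 and Junb at -106, and the CRE lay at -143 in Dusp1, -166 in Btg2 and -62 in Plk2. The stretches of 170 bases below lie at chr12:85473720-85473889 on the forward strand (Fos), chr7:19310046-19310215 on the reverse strand (Fosb), chr8:84978749-84978918 on the reverse strand (Junb), chr17:26508473-26508642 on the reverse strand (Dusp1), chr1:134079156-134079325 on the reverse strand (Btg2) and chr13:110394874-110395043 on the forward strand (Plk2), and are written 5′ to 3′ along the gene with capitals at matches to the CRE or, in Fos, Fosb and Junb, to its core. A match describes the letters only.
Fos: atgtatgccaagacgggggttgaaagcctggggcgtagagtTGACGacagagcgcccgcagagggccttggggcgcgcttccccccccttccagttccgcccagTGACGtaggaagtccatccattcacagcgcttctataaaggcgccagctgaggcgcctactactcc
Fosb: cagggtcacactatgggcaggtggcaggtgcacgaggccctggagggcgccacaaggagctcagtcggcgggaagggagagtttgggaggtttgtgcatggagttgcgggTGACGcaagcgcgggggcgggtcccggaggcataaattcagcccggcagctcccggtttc
Junb: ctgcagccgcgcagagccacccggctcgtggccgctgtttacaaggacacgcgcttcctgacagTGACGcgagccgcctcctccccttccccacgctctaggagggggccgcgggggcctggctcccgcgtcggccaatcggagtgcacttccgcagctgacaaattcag
Dusp1: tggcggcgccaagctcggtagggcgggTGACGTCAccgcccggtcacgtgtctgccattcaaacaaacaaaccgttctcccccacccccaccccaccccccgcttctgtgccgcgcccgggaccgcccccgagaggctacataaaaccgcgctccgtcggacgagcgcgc
Btg2: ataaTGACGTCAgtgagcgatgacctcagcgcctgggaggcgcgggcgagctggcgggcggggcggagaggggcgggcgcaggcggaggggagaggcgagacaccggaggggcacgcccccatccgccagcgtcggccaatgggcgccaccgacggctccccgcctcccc
Plk2: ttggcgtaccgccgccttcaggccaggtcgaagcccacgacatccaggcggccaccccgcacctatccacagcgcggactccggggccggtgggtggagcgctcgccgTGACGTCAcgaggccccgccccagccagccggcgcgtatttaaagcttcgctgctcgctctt

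Genes known to follow the early response with a delay went both ways. Of 15 late activity-regulated genes 12 were tested, Vgf rose, Sorcs3 fell (16.7% past the threshold, beside 2.31% of all genes), 4 had an unadjusted p under 0.05, and the median log2 difference was 0.09. Vgf, the precursor of secreted neuropeptides, was 0, 17.4, 15.2, 42.9, 45.9 and 47.8 CPM in the Fos-high cells of uninjured 1 to 6 and 6.89, 6.79, 30.1, 21.2, 20.8 and 10.2 CPM in Fos-negative cells, higher in 4 of 6 libraries (log2 difference 1.39, SE 0.24, n = 3, adjusted p = 0.000141). Sorcs3, a sorting receptor that dampens synaptic glutamate receptors, was 38.0, 11.6, 15.2, 81.8, 54.9 and 41.8 CPM against 261, 203, 215, 248, 90.5 and 74.8 CPM, lower in 6 of 6 libraries (log2 difference -1.07, SE 0.16, n = 3, adjusted p = 2.23e-05). Without uninjured 6 neither passed, at log2 differences of 1.09 for Vgf (adjusted p = 0.0931) and -1.16 for Sorcs3 (0.0513). Nor did they with all 6 libraries, at 1.03 (0.194) and -1.76 (0.129), or with Fos-negative cells matched in total UMIs, at 1.40 (0.0632) and -1.13 (0.519). In cells without 3 markers of another class, described further on, Vgf passed at 3.47 (1.44e-05) and Sorcs3 did not, at -0.60 (0.321). Bdnf, a neurotrophin, had a log2 difference of 0.54 (adjusted p = 0.15), Scg2 one of 0.21 and Nptx1 one of -0.24, and none of these passed. The kinases and factors that relay signals to the Fos promoter gave no call, beside 2.31% of all genes in edgeR. With 20 of 23 genes tested, 0 calls lie near that share. DESeq2 and limma-voom also called 0, 3 genes had an unadjusted p under 0.05 in edgeR, and the median was -0.02. The kinases Map2k1 and Map2k2 had log2 differences of 0.25 and 0.28, and the factor Mef2a one of -0.02. RNA levels do not measure the activity of these proteins.

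Some heat shock genes rose in Fos-high cells, and the Hsp70 genes did so in uninjured 4 to 6 and not in uninjured 1 to 3. Of 21 genes 19 were tested, 6 rose (Hspa1b, Hspa1a, Hspb1, Dnajb1, Hsph1 and Dnajb4; 31.6%, beside 1.56% of all genes) and 0 fell, with a median log2 difference of 0.29. Hspa1a and Hspa1b encode the inducible chaperone of the Hsp70 family. Hspa1a was 4.22, 0, 0, 146, 53.9 and 62.7 CPM in the Fos-high cells of uninjured 1 to 6 and 10.9, 7.64, 5.00, 6.50, 8.41 and 12.0 CPM in Fos-negative cells (log2 difference 3.57, SE 0.50, n = 3, adjusted p = 0.0454). It was higher in uninjured 4 to 6 and lower in uninjured 1 to 3, where 1, 0 and 0 UMIs were counted in Fos-high cells. Hspa1b was 0, 0, 0, 31.2, 22.9 and 19.4 CPM against 1.72, 0.849, 1.18, 1.47, 2.47 and 2.99 CPM (log2 difference 3.70, SE 0.43, n = 3, adjusted p = 4.19e-08). The small heat shock protein Hspb1 was 25.3, 52.1, 137, 201, 176 and 140.4 CPM against 117, 70.0, 35.9, 31.9, 55.4 and 55.1 CPM (log2 difference 1.97, SE 0.29, n = 3, adjusted p = 0.0424), with the lower value in Fos-high cells in uninjured 1 and 2. Dnajb1, a co-chaperone, was higher in 6 of 6 libraries, at 33.7, 23.1, 98.7, 81.8, 54.9 and 62.7 CPM against 16.7, 19.5, 21.2, 20.5, 20.8 and 32.3 CPM (log2 difference 1.52, SE 0.21, n = 3, adjusted p = 2.91e-06). With all 6 libraries 1 heat shock gene rose (52 of 10324 over all genes), and Hspa1a had a log2 difference of 2.49 (adjusted p = 0.21). Hspa1a passed in 18 of 25 alternatives, limma-voom not among them, with log2 differences from 2.09 to 3.91. Hspb1 passed in 20 of 25, with log2 differences from 0.47 to 2.19. Hsph1 and Dnajb4, with log2 differences of 0.63 and 0.55, passed in no fit that left out uninjured 4, 5 or 6, at 0.60, 0.66 and 0.57 for Hsph1 and 0.48, 0.67 and 0.45 for Dnajb4, and the list kept 4 genes in each of these fits. Over all genes 164 of 10292, 72 of 10275 and 53 of 10832 rose there. The constitutive chaperones Hspa8 and Hsp90aa1 did not pass, with log2 differences of 0.19 (adjusted p = 0.48) and -0.14 (adjusted p = 0.636).

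Other stress programmes were mostly outside the calls. Of 16 genes of the integrated stress response and of stress in the endoplasmic reticulum 12 were tested and 1 rose (8.33%, beside 1.56% of all genes), with a median of 0.15. That gene, Ppp1r15a, encodes the subunit that directs a phosphatase to a translation initiation factor and restores translation, and it was 4.22, 23.1, 7.59, 46.8, 35.9 and 16.4 CPM in the Fos-high and 4.6, 6.79, 4.11, 5.12, 7.91 and 9.58 CPM in the Fos-negative cells of uninjured 1 to 6 (log2 difference 2.31, SE 0.36, n = 3, adjusted p = 0.000384). Of 19 genes of NF-kB and cytokine signalling 2 had enough UMIs to be tested. Of these 2, edgeR, DESeq2 and limma-voom called 0, beside 2.31% of all genes in edgeR, and 0 had an unadjusted p under 0.05. The log2 differences were 1.14 for Nfkbia, an inhibitor of NF-kB, and -0.37 for Nfkb1, a subunit. Without uninjured 5, Nfkbiz, a nuclear regulator of NF-kB, was tested too and rose, and 1 of 3 then passed. Of 16 genes known to respond to axon injury 9 were tested, 1 rose (11.1%, beside 1.56% of all genes) and the median was 0.29. It was Nppb, which encodes a natriuretic peptide, at 135, 208, 137, 9.74, 34.9 and 34.3 CPM against 0.574, 6.79, 5.14, 3.38, 6.43 and 11.4 CPM (log2 difference 1.92, SE 0.33, n = 3, adjusted p = 0.000154), with its highest levels in uninjured 1 to 3. Without uninjured 5 or 6 its log2 difference was 1.55 and 2.11 (adjusted p = 0.0938 and 0.0675). Without cells that carried UMIs of Opn4 and Eomes, described further on, the log2 difference of Nppb was 0.71 (adjusted p = 0.578).

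Of 37 genes that mark types of RGC 29 were tested, 3 rose (Adcyap1, Bhlhe22 and Meis2; 10.3%, beside 1.56% of all genes) and 2 fell (Tbr1 and Jam2), with a median of -0.11. Each of the 5 lost the call in at least 1 fit that left out a library. Tbr1, a T-box factor of a set of RGC types, had 0, 2 and 1 UMIs in the Fos-high cells of uninjured 4, 5 and 6, and none in those of uninjured 1 to 3, against 4.02, 13.2, 7.79, 12.4, 9.39 and 15.6 CPM in the Fos-negative cells of uninjured 1 to 6 (log2 difference -3.09, adjusted p = 0.00167; -2.97 and 0.145 without uninjured 6). Jam2, an adhesion protein of a direction-selective type, had a log2 difference of -0.72 (adjusted p = 0.0354) and passed in no fit that left out a library, with -0.43, -0.77 and -1.03 without uninjured 4, 5 and 6. Adcyap1 encodes a neuropeptide of melanopsin RGCs, and it was 439, 509, 372, 17.5, 87.8 and 67.2 CPM against 21.3, 27.2, 28.1, 21.7, 32.6 and 32.3 CPM, with the largest difference in uninjured 1 to 3 and a lower value in the Fos-high cells of uninjured 4 (log2 difference 0.97, SE 0.22, n = 3, adjusted p = 0.0151). It did not pass without uninjured 5 (adjusted p = 0.619, log2 difference 0.54) or 6 (0.351), nor without cells with UMIs of Opn4 and Eomes (log2 difference 0.13, adjusted p = 0.883). Meis2, a homeobox factor that amacrine cells also express, was 156, 5.79, 592, 573, 216 and 188 CPM against 76.4, 147, 295, 241, 125 and 163 CPM (log2 difference 0.83, SE 0.17, n = 3, adjusted p = 0.018). Its log2 difference was 0.54 without uninjured 4, and 0.78 without uninjured 5 (adjusted p = 0.0971), and in cells without 3 markers of another class the log2 difference was -0.14. Bhlhe22, a transcription factor, had a log2 difference of 0.95 (adjusted p = 0.0427), with 0.96 (0.123) without uninjured 4, 0.85 (0.396) without uninjured 5 and 0.96 (0.214) without uninjured 6.

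Of the genes that fell, the largest differences among calls with an average log2 CPM of 5 or more are given here. Lrrc4c, an adhesion protein that binds netrin-G, was 877, 549.8, 372, 507, 829.9 and 506 CPM in the Fos-high and 1034, 905, 1567, 1723, 1416 and 1444 CPM in the Fos-negative cells of uninjured 1 to 6, lower in 6 of 6 libraries (log2 difference -1.31, SE 0.16, n = 3, adjusted p = 0.000191; without uninjured 6 the log2 difference was -1.23 and the adjusted p 0.228). Myo5b, a myosin of vesicle transport, was 8.43, 0, 7.59, 40.9, 7.98 and 11.9 CPM against 46.0, 87.0, 105, 94.6, 34.6 and 31.7 CPM, also lower in 6 of 6 (log2 difference -1.46, SE 0.24, n = 3, adjusted p = 6.44e-05). Ptchd4, a membrane protein with a patched domain, was 101, 46.3, 38.0, 146, 174 and 161 CPM against 401, 381, 460.3, 436, 301 and 274 CPM, again lower in each library (log2 difference -1.0, SE 0.14, n = 3, adjusted p = 6.74e-06). Sgcz, a sarcoglycan, fell in the test (log2 difference -1.02, SE 0.13, n = 3, adjusted p = 4.61e-07) and was lower in 5 of 6 libraries. Flrt2, an adhesion protein, fell by 1.12 on the log2 scale (adjusted p = 3.26e-05; without uninjured 6 the log2 difference was -1.15 and the adjusted p 0.0931) and Tbc1d4, a regulator of vesicle traffic, by 1.27 (0.00141; without uninjured 6 -1.29 and 0.0846). Over all 6 libraries the log2 difference of Tbc1d4 was -0.35 (adjusted p = 0.709), and without cells with 3 markers of another class it was -0.94 (0.344). With Fos-negative cells matched in total UMIs Sgcz had a log2 difference of -0.49 (adjusted p = 0.919) and Lrrc4c, which also lost the call (0.148), a larger one than before, -1.57, while Myo5b, Ptchd4, Flrt2 and Tbc1d4 kept the call. The loci next in size were lower in 6 of 6 libraries, A830018L16Rik (log2 difference -0.96, SE 0.19, n = 3, adjusted p = 0.00167; -0.82 with 0.0906 and -1.01 with 0.084 without uninjured 5 and 6) and Gm30373 (log2 difference -0.91, SE 0.23, n = 3, adjusted p = 0.0189; -1.05 with 0.0953 and -0.80 with 0.214). In the fit matched in total UMIs both lost the call, at -0.62 (adjusted p = 0.484) and -0.77 (0.36). Stk32a, a kinase, was 215, 110.0, 289, 31.2, 35.9 and 38.8 CPM against 10.3, 40.3, 76.7, 68.8, 92.5 and 77.2 CPM (log2 difference -1.16, SE 0.18, n = 3, adjusted p = 2.33e-05). It fell in uninjured 4 to 6 and was higher in the Fos-high cells of uninjured 1 to 3, and with all 6 libraries its log2 difference was 0.55.

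Several markers of amacrine cells were higher in Fos-high cells. Of 10 amacrine markers, all tested, 7 rose (Tfap2b, Gad1, C1ql1, Tfap2a, Slc32a1, C1ql2 and Gad2), beside 1.56% of all genes, 0 fell, and the median log2 difference was 1.56. The summed level of the 10 markers was 1008, 585, 395, 1368, 735 and 649.6 CPM in the Fos-high and 449, 479.7, 596, 665, 521 and 492 CPM in the Fos-negative cells of uninjured 1 to 6, higher in 5 of 6 libraries. Each marker of the list had UMIs in the Fos-high cells of at least 1 library. Its most abundant gene, the homeobox factor Pax6, did not pass, with mean levels of 302 and 323 CPM (log2 difference 0.18, adjusted p = 0.546), and RGCs themselves express Pax6. Gad1, which makes GABA, was 80.1, 0, 0, 193, 26.9 and 65.7 CPM against 5.74, 10.6, 26, 39.4, 13.3 and 6.59 CPM (log2 difference 2.24, SE 0.26, n = 3, adjusted p = 0.000172). C1ql1, a secreted synaptic protein, was 245, 98.4, 45.6, 228, 102 and 49.3 CPM against 17.8, 18.7, 30.3, 57.6, 24.7 and 8.38 CPM, higher in 6 of 6 libraries (log2 difference 2.11, SE 0.16, n = 3, adjusted p = 1.85e-13). Tfap2b, a transcription factor of amacrine cells, was 109.7, 11.6, 0, 132, 43.9 and 7.47 CPM against 5.74, 10.2, 30.4, 29.4, 4.94 and 1.20 CPM in uninjured 1 to 6 (adjusted p = 4.19e-10). Cells with UMIs of at least 3 of the markers made up 92.3, 36.7 and 29.0% of the Fos-high cells of uninjured 4, 5 and 6 and 70.7, 22.8 and 16.0% of the Fos-negative cells, with the depths given above. The number of markers that rose was 3 of 7 tested without uninjured 4, 5 of 10 without uninjured 5, 3 of 10 without uninjured 6 and 1 of 9 with all 6 libraries. Over all genes it was 164 of 10292, 72 of 10275, 53 of 10832 and 52 of 10324. Without uninjured 4, Gad2 was at 0.64 and C1ql2 at 1.14 on the log2 scale. Tfap2a and Slc32a1 were at 1.41 and 1.12 without uninjured 5 and at 1.84 and 1.44 without uninjured 6, where C1ql2 was at 1.28 and Gad2 at 1.09. With all 6 libraries Tfap2b was at 2.14, Gad2 at 2.11, Gad1 at 1.87, Tfap2a at 1.49, Slc32a1 at 1.33 and C1ql2 at 1.32. With Fos-negative cells matched in total UMIs 1 of 8 rose, C1ql1 (31 of 8458 over all genes), at a median log2 difference of 1.03, and 5 others lost the call at different sizes of difference. Tfap2a kept its log2 difference, at 1.91 (adjusted p = 0.159, before 1.95), while Gad1 was at 1.45 (0.713), Tfap2b at 1.38 (0.257), C1ql2 at 0.68 (0.747, before 1.51) and Gad2 at 0.49 (0.655, before 1.15). The paper's methods state that amacrine cells were depleted along with macrophages, whereas the sample labels name macrophages alone. The part of amacrine RNA or cells in the differences was not tested.

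Adarb2, of the RNA-editing enzyme family, and Prkg1, a kinase driven by cyclic GMP, were also among the largest rises with an average log2 CPM of 5 or more. Adarb2 was 21.1, 243, 30.4, 177, 35.9 and 55.3 CPM against 8.62, 47.5, 37.2, 45.7, 11.4 and 13.8 CPM (log2 difference 1.94, SE 0.19, n = 3, adjusted p = 1.85e-10), and Prkg1 198, 122, 7.59, 290.3, 158 and 86.6 CPM against 24.7, 85.8, 122.6, 113, 31.1 and 37.7 CPM (log2 difference 1.65, SE 0.17, n = 3, adjusted p = 2.58e-05). With Fos-negative cells matched in total UMIs neither passed, at log2 differences of 1.08 (adjusted p = 0.444) and 0.97 (0.695), and with all 6 libraries Prkg1 was at 1.29 (0.389). With cells that held 3 markers of any other class left out, uninjured 5 and 6 alone reached the minimum of 10 Fos-high cells, with 20 and 18, and neither gene was abundant enough to be tested. In those cells Fosb, Junb, Jun and Jund all rose, with a log2 difference of 4.69 for Fosb, 2.77 for Junb and 2.09 for Jun. Dusp1 and Egr1 rose there as well, by 2.57 and 3.21. Of the early lists, 4 AP-1 genes, 6 transcription factors, 3 effectors and 2 heat shock genes passed, and 106 genes in all, of 8754 tested. Nr4a1, at a like log2 difference of 1.62 (adjusted p = 0.234), Dnajb1, at 1.11 (0.115), and Klf6, whose sign changed, at -0.12 (0.946), did not pass there, and Gadd45b and Hspa1b were not tested.

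Markers of the other classes gave few calls, where 2.31% of all genes tested passed in edgeR. Of 13 markers of microglia and macrophages 1 was tested and 0 called, and their sum was 35.9 to 75.2 CPM in the Fos-high cells of 5 libraries and 395 CPM in those of uninjured 4, where 1 cell held 83.7% of these UMIs. Of these markers Cd74 was at 0. Leaving out cells with 3 such markers gave 240 genes, of which 209 were among the 239, and Hspb1 and Meis2 lost the call. Of 10 Müller glia markers 3 were tested and 0 called by edgeR, DESeq2 or limma-voom, though all 3 had an unadjusted p under 0.05 in edgeR and the most abundant marker of the list, Dkk3, passed in 4 of 25 alternatives (Aqp4, Sox9 and Kcnj10 at 0 in Fos-high cells), and of 9 bipolar markers 2 were tested and 0 called by these tools, with 1 at an unadjusted p under 0.05 (among those at 0 were Otx2, Grm6, Cabp5 and Vsx1). The sums of both lists were nevertheless mostly higher in Fos-high cells: the bipolar markers summed to 146 to 434 CPM against 91.7 to 167 CPM, higher in 6 of 6 libraries, and the Müller glia markers to 178 to 331 CPM against 150.3 to 222 CPM, higher in 5 of 6. At least 3 Müller glia markers were counted in 22.6 to 69.2% of the Fos-high and 12.3 to 41.7% of the Fos-negative cells of a library. Of 10 rod markers 1 was tested, with Nrl and Prph2 at 0, and of 5 astrocyte markers 1, with Gfap and Aldh1l1 at 0. Of 5 horizontal cell markers 4 were tested and 1 rose, Tfap2a, which is also on the amacrine list. The sums of these classes went the other way in most libraries for rods and horizontal cells. Rod sums were higher in Fos-high cells in 1 of 6 libraries (median 33.9 against 49.0 CPM), horizontal cell sums in 2 of 6 (139 against 175 CPM) and astrocyte sums in 3 of 6. No marker of cones, endothelium, pericytes, pigment epithelium or erythrocytes was abundant enough to be tested. Their part in the differences was not tested.

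Many messenger RNAs of ribosomal proteins had small positive differences. Of 81 tested, of 89 in the files, 38 rose (beside 1.56% of all genes) and 0 fell, 80 had a positive log2 difference and the median was 0.40, beside 0.01 over all genes. Rps24 had a log2 difference of 0.55 and Rpl41 of 0.53. The translation factor Eef1a1 had one of 0.54. The count changed with the libraries: 35 rose without uninjured 4, 0 without uninjured 5 and 7 without uninjured 6. Over all genes 164 of 10292, 72 of 10275 and 53 of 10832 rose in these fits, beside 162 of 10354 in the fit of uninjured 4 to 6. These are edgeR counts, and 30 of the ribosomal protein genes had an unadjusted p under 0.05 without uninjured 5. Without uninjured 4, 5 and 6 the log2 difference was 0.51, 0.38 and 0.63 for Rpl41 and 0.48, 0.38 and 0.59 for Rps27a. With Fos-negative cells matched in total UMIs 0 rose (31 of 8458 over all genes), at a median of 0.36 and with 60 ribosomal protein genes at an unadjusted p under 0.05. On the sums that gave 38 in edgeR, DESeq2 called 44, DESeq2 without its own filter 10 and limma-voom 63. With all 6 libraries 23 rose (52 of 10324 over all genes), at a median of 0.70. The matched fit also held fewer Fos-negative cells, 13, 49 and 31 in uninjured 4 to 6, so it changed depth and cell number together. In the matched cells of all 6 libraries the ribosomal share per cell was still higher in Fos-high cells in 6 of 6, by a mean of 2.31 points (exact p = 0.03125, adjusted p = 0.156), beside 2.68 without matching.

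In uninjured 1 to 3 the Fos-high cells were mostly cells with UMIs of Opn4 and Eomes, which together mark RGCs that express melanopsin, the photopigment that lets a ganglion cell respond to light directly. This split was chosen after the values had been seen, so it is a description with no test. Cells with at least 1 UMI of both genes numbered 9, 7, 20, 16, 14 and 8 in uninjured 1 to 6, and 6, 5, 2, 0, 5 and 2 of them were Fos-high. They made up 13 of the 15 Fos-high cells of uninjured 1 to 3 and 7 of the 93 of uninjured 4 to 6. In uninjured 1 and 2, 66.7 and 71.4% of these cells were Fos-high (95% Clopper-Pearson intervals 29.9 to 92.5% and 29.0 to 96.3%), against 1.12 and 0% of the other cells, at median depths of 30082 and 34816 UMIs and 27260 and 30167 UMIs. In uninjured 3 to 6 the shares were 10, 0, 35.7 and 25%, against 0.292, 2.05, 17.4 and 15% of the other cells, so uninjured 4 went the other way. With cells thinned to 10000 UMIs, uninjured 4 had 1 Fos-high cell of 11 with both genes, against 26 of 622 others. That is a higher share, which rests on 1 cell. The Fos-high group thus had a different make-up in different libraries. Opn4 itself was 582, 752, 1238, 0, 91.8 and 53.8 CPM and Eomes 633, 532, 524, 1.95, 36.9 and 23.9 CPM in the Fos-high cells of uninjured 1 to 6.

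The 2 kinds of Fos-high cell differed in their pooled levels of early genes, and no difference between them was tested. Kind of cell and library largely went together, since 13 of the 20 cells with Opn4 and Eomes came from uninjured 1 to 3 and 86 of the 88 others from uninjured 4 to 6. Pooled over uninjured 1 to 6, Fos was 587 CPM in the 20 Fos-high cells with Opn4 and Eomes and 663 CPM in the 88 other Fos-high cells. Junb was 591 and 214 CPM, and 11.9 CPM in the other Fos-negative cells. Egr1 was 198, 96.3 and 8.10 CPM in these 3 groups, and Nr4a1 101, 24.2 and 9.11 CPM. Nr4a3 was 124, 6.29 and 0.701 CPM, so Junb, Egr1 and the Nr4a genes were higher in the cells with Opn4 and Eomes. Jun went the other way, at 22.7, 249.8 and 53.8 CPM. Fosb was 25.7, 95.4 and 2.06 CPM, and Npas4 12.1, 67.8 and 2.03 CPM. The heat shock gene Hspa1a was 3.02, 82.3 and 7.05 CPM, and Ier2 13.6, 61.5 and 6.00 CPM. These genes were thus higher in the other Fos-high cells. Dusp1 was close in both, at 83.2 and 90.0 CPM. Nppb (198 against 8.71 CPM), Adcyap1 (486 against 30.0 CPM) and Rasgrp1, an activator of Ras (354 against 3.87 CPM), were also high in the cells with Opn4 and Eomes.

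Leaving all cells with UMIs of Opn4 and Eomes out of both groups, an alternative added after the data had been seen, gave 255 genes in uninjured 4 to 6, of which 206 were among the 239. With no minimum of cells, over the 5 libraries that still had Fos-high cells, it gave 181 genes, of which 116 were among the 239, and Jun then rose by 2.04 on the log2 scale (adjusted p = 1.70e-28) and Fosb by 5.47. Uninjured 1 and 3 then contributed 1 Fos-high cell each. The plot by Opn4 and Eomes gives the values by library.

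**Figure D5:**
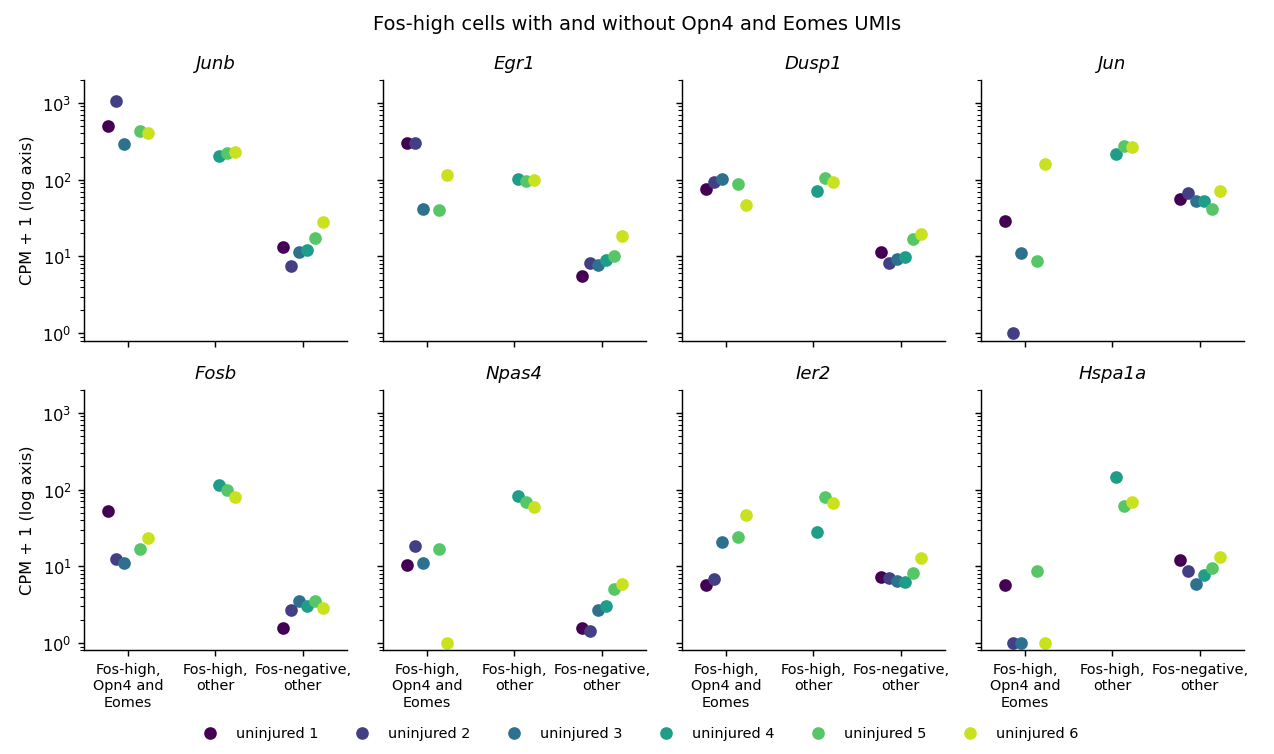
CPM + 1 (log axis) of 8 genes by uninjured library in Fos-high cells with UMIs of Opn4 and Eomes, other Fos-high cells (uninjured 4 to 6; uninjured 1 and 3 hold 1 such cell each and are not drawn) and other Fos-negative cells. Junb and Egr1 are high in both kinds of Fos-high cell, while Jun, Fosb and Hspa1a are higher in the other Fos-high cells.

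After ONC the libraries were shallower and each held few Fos-high cells. Injured 1 to 4 held 338, 273, 527 and 471 cells, with totals of 5934728, 4698799, 8860536 and 6275218 UMIs and medians of 14695, 14644, 14159 and 11257 UMIs per cell. Of these cells 3, 4, 7 and 4 were Fos-high (0.888, 1.47, 1.33 and 0.849%), and 2, 1, 6 and 4 of the Fos-high cells had UMIs of Opn4 and Eomes. Uninjured 3, at 0.826%, lay below each of these shares and the other uninjured libraries above them. After thinning the injured shares were 1.49, 2.76, 2.0 and 1.44%, with uninjured 3 at 1.97%, and the shares were not tested. Injured 3 and 4 shared 421 barcodes, 3 of them Fos-high in both, and were averaged to 1 sample, so their cells are not all distinct. No injured library held 10 Fos-high cells, so the comparison planned for them had no library, and the values that follow come from a fit with no minimum of cells. It called 439 of 11200 genes (3.92%), of which 38 were among the 239, and the count was 182 without injured 1, 6 without injured 2 and 8 without injured 3 and 4. Fosb was 26.1, 36.0, 56.9 and 135 CPM in the Fos-high and 0.953, 1.18, 0 and 0.524 CPM in the Fos-negative cells of injured 1 to 4 (log2 difference 5.8, adjusted p = 3.90e-09). Junb was 209, 108, 911 and 1141 CPM against 26.5, 34.9, 45.0 and 49.5 CPM (log2 difference 3.03). Not all genes followed: of the 239, 229 were tested in this fit and 86 of them had the opposite sign, among them Hspb1 (log2 difference -1.52, adjusted p = 0.00424) and Sgcz (1.14, 0.0188). Jun, which injury itself induces in RGCs, was 534, 528, 266 and 155 CPM against 529, 499.8, 443 and 465 CPM, with no call (log2 difference -0.45, adjusted p = 0.573).

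The difference between uninjured and injured cells was tested with an interaction term over all libraries, with no minimum of cells. It called 11 of 10236 genes (0.107%), and Ier2 was the early gene among them. Ier2 was 13.0, 48.0, 28.5 and 38.7 CPM in the Fos-high and 35.8, 40.8, 58.7 and 73.7 CPM in the Fos-negative cells of injured 1 to 4, and its log2 difference was larger by 3.07 in uninjured cells (SE 0.59, adjusted p = 0.0477). For Fosb the interaction was -0.88 (adjusted p = 0.869), for Jun 1.46 (0.813), for Egr1 2.79 (0.326) and for Dusp1 1.79 (0.0875), and none of these passed. The injured libraries entered this fit with 3 to 7 Fos-high cells each.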

How the data were processed

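For the RGCs they had selected, the authors deposited raw UMI counts, aligned to mm39 with Cell Ranger (7.0.1 in the submitters' processing notes; the paper's methods name an earlier release and kit), without normalization. Every deposited cell met the limits of the authors (500 or more genes, no more than 20% mitochondrial and 150000 total UMIs). Doublets were not called again. Python 3.11.15 with pandas 2.3.3, scipy 1.17.1, numpy 2.4.6 and matplotlib 3.10.9 served for sums and plots. Tests ran with edgeR 4.0.16 on R 4.3.3 (TMM factors, filterByExpr, robust dispersion, quasi-likelihood test with library as block, adjusted p under 0.05). limma 3.58.1 and DESeq2 1.42.0 served as alternatives.

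UMIs were summed per library over Fos-high and over Fos-negative cells, and a library entered with at least 10 cells in each. Fos was left out of the test and of its adjustment. Per-cell measures were compared with an exact sign-flip permutation test over 6 libraries. The edgeR, DESeq2 and limma-voom tests of genes were first run on simulated counts, and the sign-flip test was not. The members and lists were chosen with earlier results of these data known. Named were Fos, 12 early genes whatever their result, the 10 largest rises and 10 largest falls among called genes whose average log2 CPM was 5 or more and that had 1 direction in every library fitted, up to 4 members of each list, and the most abundant marker of each class. Members of the lists and markers beyond these are named where they make up a count. Some genes that these rules select are not reported here. Other genes of the cells with UMIs of Opn4 and Eomes were picked after their values had been seen. Alternatives changed the normalization, test, filter, threshold on Fos, depth, quality limits, cell classes and libraries. Intervals are exact binomial and cover counting error only.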

Additional observations from a re-analysis of the deposited data

Results flagged for a closer look

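Of 38 sets of values by library, 8 had a library far from the others by Dixon's criterion, which chance gives in about 1 in 20. In the Fos-high cells of uninjured 4, with 13 cells, the sum of microglia and macrophage markers was 395 CPM, that of astrocyte markers 66.2 CPM, that of erythrocyte markers 1.95 CPM (1 UMI) and the level of Atf3 50.7 CPM (26 UMIs). In the Fos-high cells of uninjured 2, with 5 cells, Junb was 1042 CPM, Btg2 168 CPM and the sum of cone markers 17.4 CPM (3 UMIs). Among injured libraries, injured 4 had the lowest median depth, at 11257 UMIs per cell.

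The difference between Fos-high and Fos-negative cells differed between uninjured and injured libraries for 11 genes, in the fit with no minimum of cells. The log2 difference in uninjured minus that in injured cells was positive for Tafa1 (4.48), Dock11 (4.16), Bcl2l11 (3.82), a member of the Bcl2 family that promotes cell death, and Ier2 (3.07). For Tafa1 and Dock11 this came from lower values in injured Fos-high cells, with log2 differences of -5.21 and -4.25 in the injured fit and -0.73 and -0.10 in a fit of all 6 uninjured libraries, and the Fos-high cells of injured 1 to 4 held 3, 0, 0 and 0 UMIs of Tafa1 and 0, 0, 0 and 1 of Dock11. It was negative for genes that include the serotonin receptor Htr1b (-4.10), the pentraxin Nptx1 (-3.12), Gm26691 (-2.76), Thsd7b (-2.20) and Rph3a (-2.07), a protein of synaptic vesicles. The injured sums held 3, 4, 7 and 4 Fos-high cells, of which 2, 1, 6 and 4 had UMIs of Opn4 and Eomes, and 3 barcodes were Fos-high in both injured 3 and injured 4. The part of cell number and of this make-up was not tested.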

How the results depend on the processing

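The 239 calls (162 higher, 77 lower) were set against 26 alternatives, 21 planned and 5 added after the data had been seen. Of 38 genes past the threshold that the naming rules fixed, 36 kept their direction in every alternative that tested them and 5 passed in each that tested them, leaving aside DESeq2 with its own filter, which gave 920 of 10354 genes an adjusted p. The 5 were Dusp1 (tested in 25 alternatives), Fosb (24), Npas4 (23), Gadd45b (22) and Hspa1b (19, the fit of all 6 libraries not among them). The exceptions in direction were Stk32a, with log2 differences of 0.49 with libraries 1 and 2, 3 and 4, and 5 and 6 summed, 0.80 with at least 1 Fos UMI per 10000 (uninjured 1 and 3 then entered too) and 0.55 with all 6 libraries, and Meis2, at -0.14 in cells without 3 markers of another class. Klf6, a list member outside these 38, was at -0.12 in the same cells. Of the 239 calls, 40 were made in at least 20 alternatives. Depth limited the genes that could be tested in the small Fos-high sums.

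Counts that moved by over 1.5 times, as called, higher and lower, were these. Without the replicate block, so unpaired, 14, 14 and 0 were called (357 at an unadjusted p under 0.05). DESeq2 gave 89, 67 and 22, DESeq2 without its own filter 69, 55 and 14, limma-voom 365 with 263 higher, and no filter on low counts 393 with 186 lower. Leaving out uninjured 4, 5 or 6 gave 63 to 266 calls, 53 to 164 higher and 10 to 102 lower. Libraries summed in pairs gave 12, 12 and 0 (1281 unadjusted). At least 5 Fos UMIs per 10000, which left uninjured 5 and 6 alone in the fit, gave 104 higher, and at least 1, which brought in uninjured 1 and 3, gave 554, 290 and 264, so libraries and threshold changed together. Fos-negative cells matched in UMIs, with 13, 49 and 31 of them left in uninjured 4 to 6, gave 44, 31 and 13, UMIs split in 2 parts 159 with 41 lower, and cells without 3 markers of another class, in uninjured 5 and 6 alone, 106 with 52 higher. All 6 libraries gave 56, 52 and 4, and 69 higher without cells with Opn4 and Eomes. In injured samples the 439 calls became 917 with injured 3 and 4 separate, and 6 to 182 with an injured sample left out (8 without injured 3 and 4). Not among the counts that moved by over 1.5 times was the share of Fos-negative cells. In uninjured 1 to 6 it was 68.4, 73.8, 64.5, 58.2, 42.7 and 40.3% before thinning. After thinning it was 79.8, 83.3, 85.1, 77.9, 55.5 and 56.8%, with a mean of 73.1%. The causes were not tested. The injured fit and the interaction could not be fitted with the minimum of 10 cells, since no injured library had 10 Fos-high cells, and leaving out uninjured 1, 2 or 3 could not change the gene fit, which they did not enter.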

Other observations

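Genes outside the lists were looked at after their values had been seen, and the values below are a description. Kcnip4, which encodes a subunit of A-type potassium channels and was abundant in these cells, was 135, 104, 1739, 4087, 3312 and 3841 CPM in the Fos-high cells of uninjured 1 to 6 and 6510.0, 5832, 8253, 8210.0, 5407 and 4954 CPM in the Fos-negative cells. It was lower in Fos-high cells in 6 of 6 libraries, most of all in uninjured 1 and 2. In uninjured 4 to 6 its log2 difference was -0.67 (edgeR adjusted p = 0.000546, and -0.70 with 0.0906 without uninjured 5). With all 6 libraries it was -2.28 and did not pass (adjusted p = 0.36). It was -0.17 (adjusted p = 0.602) in cells without 3 markers of another class and -0.41 (0.351) with Fos-negative cells matched in total UMIs, so the call was lost in both. Cxcl14, a chemokine, was 8.43, 5.79, 0, 136, 13.0 and 28.4 CPM against 5.17, 4.67, 7.35, 16.8, 5.93 and 7.19 CPM, and its log2 difference of 2.56 (adjusted p = 5.03e-07) was 1.59 without uninjured 4, which held its highest level.

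Several genes with too few UMIs for the test in uninjured 4 to 6 were high in the Fos-high cells of uninjured 1 to 3, 13 of 15 of which had UMIs of Opn4 and Eomes. Trpc7, a channel of melanopsin phototransduction, was 219, 191, 296, 3.90, 19.0 and 29.9 CPM in the Fos-high cells of uninjured 1 to 6 and 1.72, 5.52, 5.44, 3.21, 3.96 and 2.99 CPM in Fos-negative cells. Gldn, a secreted protein known from nodes of Ranvier, was 29.5, 104, 478, 1.95, 15 and 4.48 CPM against 0, 0, 0.294, 0.347, 0 and 0 CPM, with its highest level in the 3 Fos-high cells of uninjured 3. Cd24a, a surface glycoprotein, was 84.3, 145, 539, 0, 34.9 and 4.48 CPM against 0, 0.425, 1.18, 0.867, 0.989 and 1.20 CPM. The early genes Fosl2, a Fos relative, and Sik1, a kinase induced by cyclic AMP, were higher in Fos-high cells in 6 of 6 libraries. Fosl2 was 50.6, 139, 15.2, 3.90, 4.99 and 5.97 CPM against 0, 1.70, 1.18, 1.3, 0.494 and 1.80 CPM, and Sik1 101, 122, 60.8, 29.2, 7.98 and 7.47 CPM against 1.15, 0.849, 2.06, 2.86, 0.494 and 1.80 CPM.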
